A study of Homo sapiens with 18 samples.

Results

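Chromatin immunoprecipitation sequencing (ChIP-seq) of NB4 cells gave 9486 regions that carried H3K27ac in every library and lay on H3K4me3 that was present in every library. NB4 is an established acute promyelocytic leukemia line, and the cells were either untreated or exposed for 24 h to 10 µM maltonis, a maltol-derived small molecule diluted from a stock in water. H3K4me3, H3K9me3 and H3K27ac were each profiled in 3 untreated and 3 maltonis-treated libraries, which the study describes as biological triplicates, and this gave 18 libraries in 6 groups. All of them come from 1 cell line and 1 time point, and no genetic change separates the groups.

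The regions were chosen by where peaks had been called, in both conditions, and not by how strong they were. They were found by merging the peaks (enriched stretches called in 1 library) of the 6 H3K27ac lists on chromosomes 1 to 22 wherever they overlapped by at least 1 bp. A merged region was kept when it was narrower than 30000 bp, held a peak from all 6 H3K27ac lists and overlapped a peak in each of the 6 H3K4me3 lists. This left 9486 of 36228 merged regions (26.2%), or 48.6% of the 19504 regions with a peak in all 6 H3K27ac lists. Presence of both marks in both conditions therefore chose the regions and is not a result. A region that gained or lost a mark altogether is not among them. Another 4424 shared regions under the same width limit touched no H3K4me3 peak in any list and served for comparison, 4342 had H3K4me3 in some lists but not all, and 1252 were too wide.

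H3K4me3, trimethylation of lysine 4 on histone H3, marks the start sites of active genes, and H3K27ac, acetylation of lysine 27, marks both active promoters and active enhancers. A region with both marks is promoter-like, and H3K27ac without H3K4me3 is more often found at enhancers. H3K9me3 is a mark of silenced chromatin and of repeats. In peaks of the 6 H3K27ac lists there were 17659587 to 20412339 reads. The H3K9me3 lists held 2584920 to 3344547 reads in peaks, with the lowest total in maltonis replicate 3. The H3K4me3 lists give no reads. The study describes the mapped reads of each mark as comparable between samples, but their numbers were not used here. The lowest island score admitted by the caller was 36.2 to 39.9 in the untreated H3K27ac lists and 27.1 to 32.7 in the maltonis lists. Genes at these regions were not analysed here, since coordinates are in hg19 and no annotation of that build was used, and regions are given by position alone.

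The regions had a median width of 9000 bp, ranged from 400 to 29800 bp, and had quartiles of 5600 and 14000 bp. Together they covered 99.9 Mb of the 308 Mb under all merged regions. The median width of the shared regions without H3K4me3 was 6200 bp. In 8357 of the 9486 regions (88.1%) every list had a single H3K4me3 peak, and in 9263 (97.6%) all the H3K4me3 peaks lay wholly inside the H3K27ac region. The union of the H3K4me3 peaks took up a median of 23.5% of a region, with its centre a median of 858 bp from the centre of the region. The typical region was thus a compact block of H3K4me3 inside a broader H3K27ac domain. Chromosome 19 had the highest share of such regions, 693 of its 990 shared H3K27ac regions (70.0%), and chromosome 12 had the lowest (36.8%).

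The limit of 30000 bp cut through a continuous range of widths. At 29800 bp there were 15 regions, among them chr1:161160001-161189800 and chr1:32385601-32415400, the latter with 2124, 2331 and 2233 H3K27ac reads untreated and 2176, 2379 and 2202 after maltonis. A further 13 regions missed the limit at 30000 bp, among them chr2:70051001-70081000 and chr3:52012801-52042800, the latter with 3238, 3491 and 3383 reads untreated and 2464, 2851 and 2711 after maltonis.

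The first comparison asked whether the amount of H3K27ac at these regions differed after maltonis. Their share of all H3K27ac reads in peaks was 49.0, 48.4 and 48.6% in untreated replicates 1 to 3, and 53.8, 53.7 and 53.9% in the maltonis replicates. Per region, the median was 41.7, 41.4 and 41.7 reads per 1000000 reads in peaks (RPM) untreated and 46.9, 46.4 and 46.9 after maltonis. Every maltonis library was above every untreated one in both measures. The means were 41.6 ± 0.193 and 46.7 ± 0.299 RPM (SD, n = 3 each), 12.3% higher after maltonis. With 3 libraries against 3, the exact permutation test (two-sided) could not go below p = 0.1, and that was its value here. Because each value is a share of the reads in peaks, a higher value at these regions goes with a lower one elsewhere.

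At the shared regions without H3K4me3 the order was the opposite. Their median was 9.36, 9.9 and 9.76 RPM untreated and 7.64, 7.45 and 7.19 after maltonis, without overlap. Regions with H3K4me3 in some lists but not all were also lower, at 16.5, 16.6 and 16.6 RPM against 12.3, 12.1 and 12.0. The rise was thus not seen where H3K4me3 was in only some lists. That class was defined by the lists of both conditions and can hold regions that lost H3K4me3 after maltonis. The contrast with it therefore depends on how the regions were chosen. The log2 difference between the medians of the regions on constant H3K4me3 and those without was 2.16, 2.06 and 2.1 untreated and 2.62, 2.64 and 2.71 after maltonis. This gap was wider by 0.549 on the log2 scale after maltonis, with no overlap between the conditions (exact permutation p = 0.1, two-sided, the smallest possible).

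**Figure D1:**
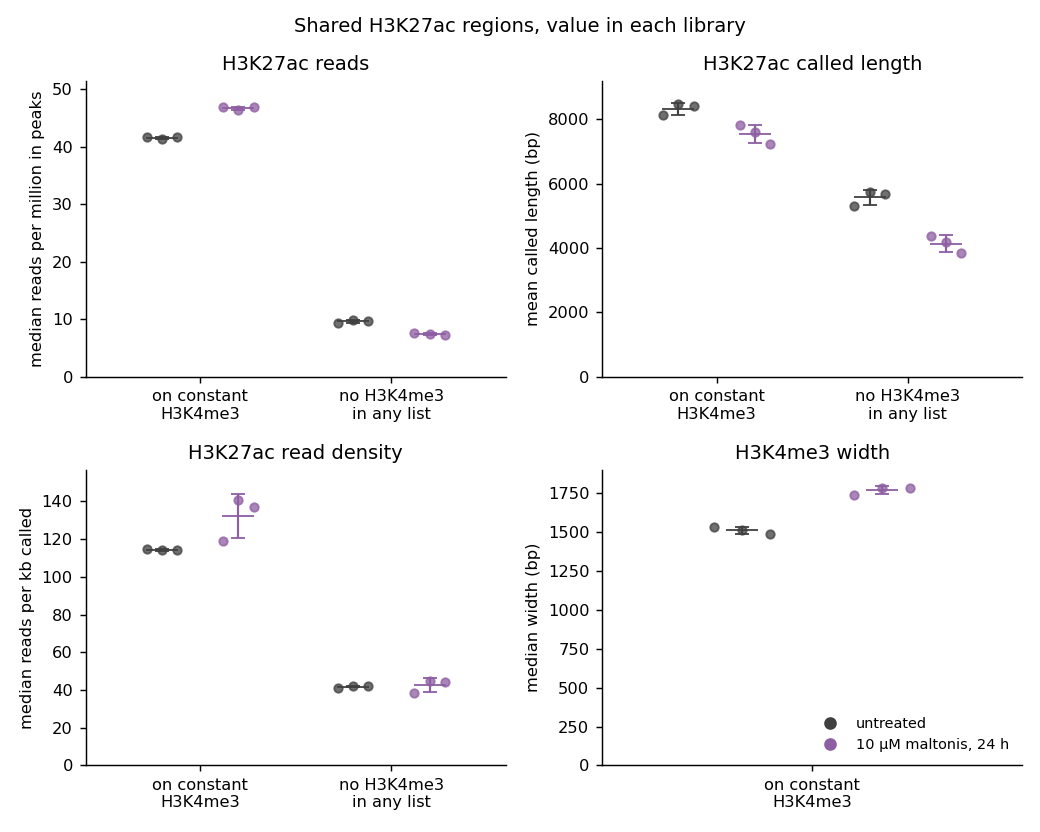
Values of shared H3K27ac regions in each library: median reads per 1000000 reads in peaks, mean called length in bp, median reads per kb of called length (not scaled for depth) and median H3K4me3 width in bp (points, libraries in replicate order; bars, mean ± SD of 3 libraries; all axes start at 0). At regions on constant H3K4me3, reads, read density and H3K4me3 width are higher and mean called length is lower in every maltonis library, while at regions without H3K4me3 both reads and length are lower.

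Region by region, H3K27ac reads were compared over all 19504 shared regions with edgeR's quasi-likelihood test and Benjamini-Hochberg adjustment. A region was called when its false discovery rate (FDR) was at most 0.01 and its log2 fold change at least 0.58 in either direction. Among the 9486 regions on constant H3K4me3, 929 rose (9.79%, against 8.05% of all regions tested) and 907 fell (9.56%, against 19.5%). Their median log2 fold change was 0.17, with quartiles of -0.14 and 0.39, against -0.02 over all regions. It was -0.36 over the regions without H3K4me3 and -0.37 over those with H3K4me3 in some lists. By the FDR alone, 4266 of the 9486 were higher (45.0%, against 28.6% of all tested) and 1734 lower (18.3%, against 27.6%). Most of the differences that passed it were thus smaller than the fold limit. The near balance of calls leaned either way with the processing, and scaling by total reads in peaks gave 753 higher and 987 lower calls with a median of 0.14.

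Summed reads depend on how long a peak was called, and only 8 of the regions had the same H3K27ac boundaries in all 6 lists. Reads per kb of called length had medians of 115, 114 and 114 untreated and 119, 141 and 137 after maltonis. These values are not scaled for depth, and maltonis replicate 1 had the fewest reads in peaks. Scaled to 1000000 reads in peaks, the medians were 6.01, 5.68 and 5.74 untreated and 6.73, 6.91 and 7.24 after maltonis, and on both scales all 3 maltonis values were higher. With called length as an offset in the edgeR test, 682 regions were called higher in density (7.19%, against 5.78% of all tested) and 143 lower (1.51%, against 2.28%). The median log2 fold change was 0.24 against 0.16 over all tested, which include these regions. It was 0.06 over the regions without H3K4me3, 0.07 over those with H3K4me3 in some lists and 0.16 over the 1252 too wide. Higher density was thus shared with the wide regions, whose scaled medians were 5.1, 4.89 and 4.96 against 5.58, 5.64 and 5.93. The counts of 682 and 143 leaned on single libraries: without maltonis replicate 3 they were 256 and 60, and without maltonis replicate 2 they were 301 and 37. In 762 regions whose longest called length was at most 1.2 times the shortest, 48 were called higher and 12 lower, with a median of 0.23. Both are smaller shares than over all 9486 regions (9.79 and 9.56%) or all tested (8.05 and 19.5%). When only such regions were scaled against each other, the calls were 17 and 33 and the median 0.05, so the balance of directions there depended on the scaling.

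**Figure D2:**
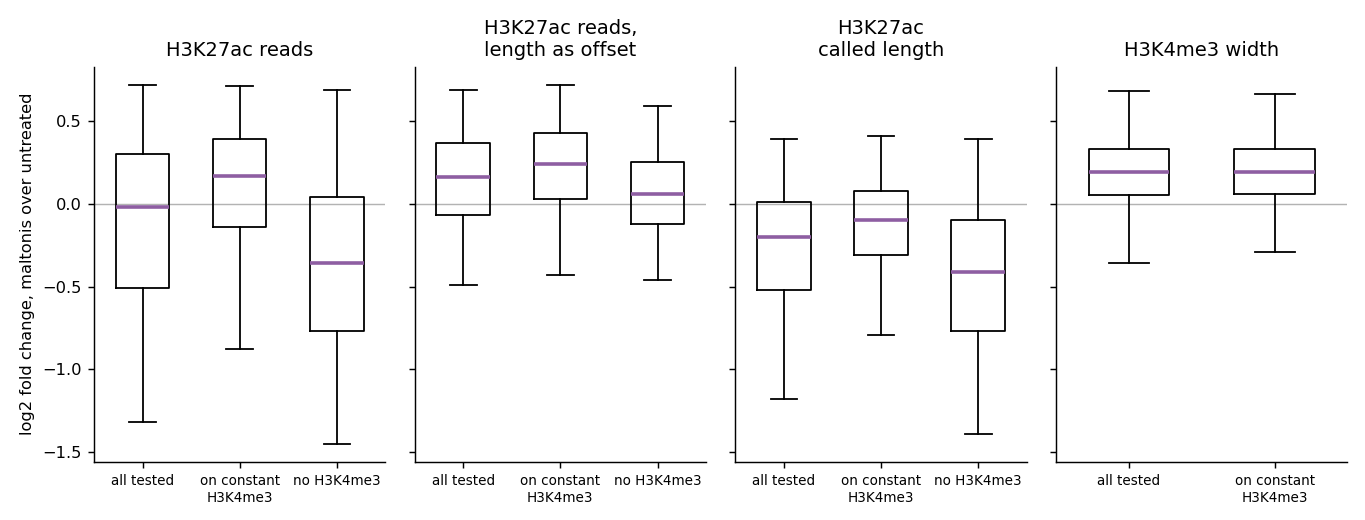
Log2 fold changes (maltonis over untreated) of H3K27ac reads, of reads with called length as an offset, of called length and of H3K4me3 width, for all regions tested, regions on constant H3K4me3 and regions without H3K4me3 (line, median; box, quartiles; whiskers, 5th and 95th percentiles). For reads the medians are -0.02, 0.17 and -0.36, and for called length they are -0.20, -0.10 and -0.41.

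The level of H3K27ac went with the direction of the change in summed reads. In the lowest quartile of read density (35.6 to 93.5 reads per kb, mean of 6 libraries) the median log2 fold change of reads was -0.15. Of its 2372 regions, 194 were called higher and 568 lower. In the highest quartile (from 158 reads per kb) the median was 0.28, with 216 of 2372 called higher and 40 lower. Among all 9486 regions 9.79% were called higher and 9.56% lower, against 8.05 and 19.5% of all regions tested. The quartiles between had medians of 0.14 and 0.24. With called length as an offset, the medians were 0.11, 0.23, 0.29 and 0.29 from the lowest quartile to the highest. For called length they were -0.24, -0.11, -0.06 and -0.04. Density was thus not lower in the lowest quartile, where calls were shorter. Regions with the narrowest H3K4me3, up to 1271 bp, had a median of 0.02, and the other quartiles of H3K4me3 width had medians of 0.19 to 0.22. These levels include the maltonis libraries, so the quartiles are a description and were not tested.

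By position, 257 regions were called higher in both reads and density, and the one that rose most in reads was chr15:83377001-83379600. It had 92, 82 and 81 reads in the untreated libraries and 355, 331 and 335 after maltonis, a log2 fold change of 2.05 ± 0.15 (SE; edgeR adjusted p = 2.38e-06). Called lengths overlapped, at 1400 to 2200 bp untreated and 2000 to 2600 bp after maltonis. Its H3K4me3 peak measured 947, 1122 and 1111 bp untreated and 1406, 1701 and 1698 bp after maltonis. H3K27ac reads were thus higher and H3K4me3 was wider in all the maltonis libraries.

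A different form of increase was seen at chr1:149814801-149822000, where the called length was 7200 bp in all 6 libraries. Reads there were 1162, 1241 and 1228 untreated and 3154, 3522 and 3303 after maltonis, a log2 fold change of 1.50 ± 0.03 (SE; edgeR adjusted p = 2e-09). Here H3K27ac thus rose within fixed boundaries. The width of the whole H3K4me3 peaks overlapped, at 2322 to 2455 bp untreated and 2391 to 2446 bp after maltonis. Inside the region the H3K4me3 bases were 2061, 2037 and 2138 against 2277, 2262 and 2180, higher in every maltonis library. At chr8:103203001-103216400 all measures rose: reads were 586, 699 and 586 untreated and 1780, 2086 and 1922 after maltonis, called length was 5800 to 8000 bp against 11000 to 13200 bp, and H3K4me3 was 1322, 1240 and 422 bp wide against 3566, 3628 and 3583 bp. The other 5 regions named for an increase were chr11:46409201-46416400, chr1:200706401-200711000, chr2:220405801-220410000, chr13:31012201-31023600 and chr20:5890801-5893800, with log2 fold changes of reads of 1.49 to 1.80. None of their libraries overlapped between conditions in reads. H3K9me3 peaks were absent from all of these 8 regions except the one on chromosome 8, which had an H3K9me3 peak in all 6 libraries.

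Among the 133 regions called lower in both reads and density, chr7:150632201-150655000 fell most. Its reads were 2272, 2298 and 2319 untreated and 255, 293 and 170 after maltonis, a log2 fold change of -3.22 ± 0.114 (SE; edgeR adjusted p = 3.04e-08). The called length was 20600, 22600 and 22600 bp untreated and 10000, 7600 and 3600 bp after maltonis. H3K4me3 was also narrower, at 2154, 2133 and 2122 bp against 1286, 1266 and 1320 bp. Reads, called length and H3K4me3 width were lower in every maltonis library.

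H3K4me3 width differed less clearly at other regions. At chr10:121026601-121034800 reads were 673, 783 and 697 untreated and 132, 168 and 142 after maltonis (log2 fold change -2.24 ± 0.092, SE; edgeR adjusted p = 6.94e-08). H3K4me3 width there was 560, 930 and 640 bp against 433, 924 and 1384 bp, which overlapped. At chr19:17443601-17451000 reads were 1056, 1040 and 1002 against 207, 229 and 236, over wide H3K4me3 of 4321, 4221 and 4245 bp against 3787, 3610 and 4027 bp, narrower in every maltonis library but not past the test (log2 fold change -0.16, limma adjusted p = 0.0585). The other 5 named regions that fell, chr19:3784201-3787200, chr1:224802801-224808800, chr20:43963801-43979800, chr21:45332801-45350200 and chr16:56715201-56720800, had log2 fold changes of reads of -2.75 to -2.05. In all 8 every maltonis library had fewer reads and a shorter called length than every untreated library.

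The regions with the most reads per kb stood apart from the rest. At chr1:121481601-121485600 there were 25131, 25964 and 26190 H3K27ac reads untreated and 16509, 20232 and 19093 after maltonis. The same region held 14312, 14340 and 14472 H3K9me3 reads untreated and 15392, 15070 and 14021 after maltonis, and its H3K4me3 width was 1295 to 1299 bp in all 6 libraries. Of the 8 regions above 500 reads per kb, 7 had an H3K9me3 peak in every library. Active and silencing marks called at the same few kb with very high counts were thus found in a small number of regions, which include chr6:58775801-58779600, chr17:41399201-41402200, chr2:92295601-92298200 and chr7:61967201-61973800. Whether reads there were placed correctly was not tested.

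The second comparison asked how far H3K27ac extended. The mean called length was 8116, 8467 and 8401 bp in the untreated libraries and 7807, 7596 and 7240 bp in the maltonis libraries, a difference of -9.37% without overlap (exact permutation p = 0.1, two-sided, the smallest possible). Medians were 6600, 7000 and 6800 bp against 6600, 6400 and 6000 bp, which overlapped. At the shared regions without H3K4me3 the median was 4200, 4600 and 4600 bp untreated and 3400, 3400 and 3000 bp after maltonis. Where H3K4me3 was in some lists but not all, it was 5600, 5800 and 5800 bp against 4200, 4000 and 3800 bp. At the 1252 too wide regions the mean called length differed by -10.4%, also without overlap, so shortening of this size was shared with them. The log2 gap in called length between regions on constant H3K4me3 and those without was larger by 0.349 after maltonis, again without overlap (exact permutation p = 0.1).

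In single regions, limma on log2 called length, with an FDR limit of 0.05 and the same limit on the fold change, called 61 longer (0.643%, against 0.651% of all regions tested) and 455 shorter (4.80%, against 9.99%). The median log2 fold change was -0.10, against -0.20 over all tested. Called lengths were shorter in every maltonis library than in every untreated one at 1814 regions (19.1%, against 28.4% of all tested), and longer at 465 (4.90%, against 3.85%). The limma counts depended on having all 6 libraries. With 1 library left out, 18 to 30 were longer and 158 to 341 shorter, the fewest shorter regions without untreated replicate 3 and the fewest longer regions without maltonis replicate 3. Admitting only H3K27ac peaks above 1 common lowest island score, a choice made after seeing the data, gave 58 longer and 492 shorter regions.

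Called bases were then counted inside and outside H3K4me3. H3K27ac covered a median of 1986, 1988 and 1990 bp inside the union of the H3K4me3 peaks in the untreated libraries and 1981, 1982 and 1979 bp in the maltonis libraries, a maltonis-minus-untreated difference of -7.33 bp without overlap. This measure had little room to move, since H3K27ac covered 99.1 to 99.3% of the union bases in the untreated libraries and 98.3 to 98.6% in the maltonis libraries. Outside H3K4me3 it covered 4452, 4790 and 4744 bp untreated and 4402, 4160 and 3878 bp after maltonis, 11.1% less. Of the 2 flanks, the longer one measured 2734, 2918 and 2912 bp untreated and 2606, 2470 and 2305 bp after maltonis, without overlap. The shorter one measured 1093, 1186 and 1154 bp against 1182, 1086 and 1022 bp, and these overlapped. The exact permutation test gave p = 0.1 for the first 3 of these measures and 0.4 for the shorter flank.

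**Figure D3:**
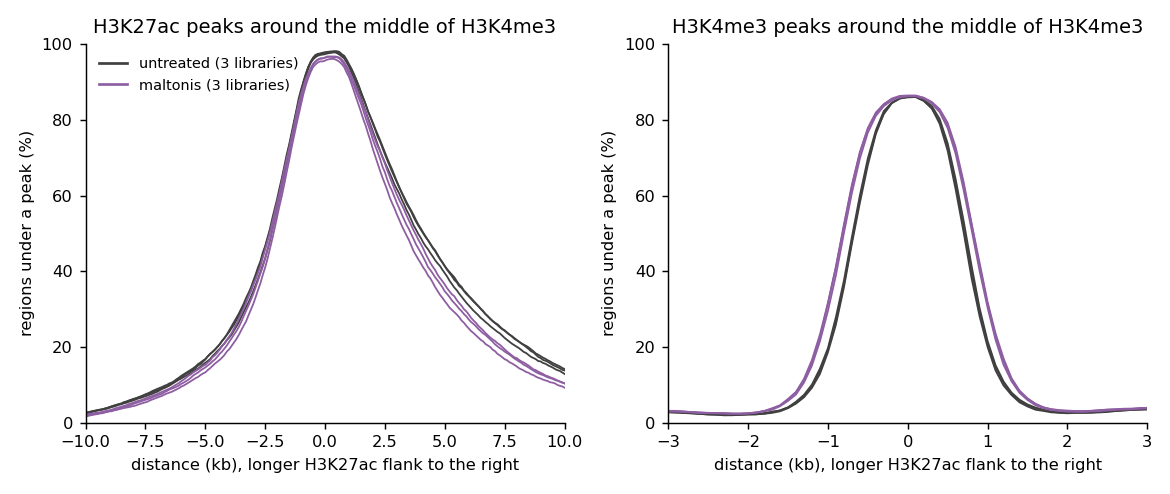
Share of the 9486 regions under an H3K27ac peak (left) or an H3K4me3 peak (right) by distance in kb from the middle of the H3K4me3 union, 1 line per library, with the longer H3K27ac flank turned to the right. At 5 kb along that flank 39.5 to 41.4% of regions were under H3K27ac in the untreated libraries and 32.1 to 36.5% in the maltonis libraries, while at 1 kb on that side H3K4me3 covered 20.0 to 21.6% against 30.4 to 31.9%.

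The profile around the middle of H3K4me3 shows the opposite movement of the 2 marks at their edges. At the middle itself 97.3, 97.7 and 97.8% of regions were under H3K27ac untreated and 96.4, 96.4 and 95.6% after maltonis. At 3 kb on the side of the longer flank it was 61.7, 63.7 and 63.5% against 60.2, 58.0 and 55.0%, and at 3 kb on the other side 34.7, 37.4 and 36.5% against 36.3, 33.9 and 31.3%. The conditions overlapped at the last of these points but not at the first and second. For H3K4me3, the share at the middle overlapped between the conditions, at 85.9 to 86.2% and 86.2 to 86.4%, but at 1 kb to the shorter-flank side it was 19.7, 19.2 and 18.6% untreated and 29.5, 31.6 and 31.5% after maltonis.

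Named for called length, chr19:46141001-46147200 shortened most, from 5600, 3400 and 5400 bp to 800, 600 and 1200 bp (log2 fold change -2.49 ± 0.311, SE; limma adjusted p = 0.00848). It was also the region whose H3K4me3 narrowed most, from 3507, 3289 and 3419 bp to 645, 552 and 736 bp, and its H3K27ac reads were 340, 298 and 317 against 42, 43 and 47. Both marks therefore contracted together at this position. At chr9:136565801-136582400, in contrast, called length went from 15600, 15000 and 16600 bp to 3000, 3000 and 3200 bp while H3K4me3 was 1255, 949 and 812 bp against 998, 985 and 781 bp, which overlapped. Its reads fell in step with its length, with a log2 fold change of -2.37 for reads and -2.36 for length. The other regions named for shortening were chr17:27940401-27947400 and chr19:13103801-13109000.

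The region that lengthened most was chr6:27139601-27148000, from 2800, 2800 and 2200 bp to 7400, 6000 and 5600 bp (log2 fold change 1.28 ± 0.168, SE; limma adjusted p = 0.00917). Reads rose by the same factor, from 307, 332 and 286 to 706, 787 and 681, while H3K4me3 width overlapped between conditions at 1543 to 1665 bp after maltonis and 1563 to 1659 bp untreated. Spreading without more reads per base was seen at chr11:102182801-102190400, where the length went from 2200, 2400 and 2400 bp to 5400, 5400 and 4600 bp and the log2 fold change of density was -0.43. The 2 others named were chr11:107320801-107330200 and chr13:41830401-41839200.

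The third comparison was of the H3K4me3 peaks themselves. Their summed width per region had a median of 1536, 1512 and 1491 bp in the untreated libraries and 1740, 1788 and 1783 bp in the maltonis libraries. Every maltonis library was wider, with means of 1513 ± 22.5 and 1770 ± 26.2 bp (SD, n = 3 each), 17.0% wider after maltonis (exact permutation p = 0.1, two-sided, the smallest possible). The deposited fold enrichment over the caller's background moved the other way, with medians of 4.84, 4.84 and 4.74 untreated and 4.23, 4.4 and 4.26 after maltonis. H3K4me3 peaks at constant sites were thus wider, with a lower deposited fold enrichment, in all 3 maltonis libraries. That value is given for a whole called peak, so it is not a height measured apart from width. Whether it was lower because the calls were wider was not tested.

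By limma on log2 width, with the limits used for called length, 490 regions were wider (5.17%, against 5.13% of the 10802 regions with H3K4me3 in all 6 lists) and 60 narrower (0.633%, against 0.805%). By the FDR alone 3498 were wider (36.9%, against 34.8% of all tested) and 147 narrower (1.55%, against 1.76%). H3K4me3 was wider in every maltonis library than in every untreated one at 5234 regions (55.2%, against 52.5% of all tested) and narrower at 332 (3.50%, against 4.04%). These shares were close to those of all regions with constant H3K4me3, of which the 9486 regions make up the greater part. The 60 narrower regions were fewer, 16, when only H3K4me3 peaks with a −log10 q of at least 10 were admitted.

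Widening was mostly on both sides. In 8351 regions with 1 H3K4me3 peak per list and both edges measurable, both edges moved outward in 4846 (58.0%), both moved inward in 473 (5.66%) and they moved opposite ways in 3019. The edge facing the longer H3K27ac flank lay 775, 760 and 750 bp from the middle untreated and 858, 876 and 868 bp after maltonis. The edge facing the shorter flank lay at 742, 736 and 726 bp against 854, 876 and 872 bp. Neither pair of groups overlapped.

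The largest H3K4me3 widening was at chr6:53411201-53415200, from 313, 349 and 334 bp to 4107, 4181 and 4259 bp (log2 fold change 3.66 ± 0.053, SE; limma adjusted p = 4.3e-05). Part of that width lay beyond the H3K27ac region, and inside it the H3K4me3 bases were 313, 349 and 334 against 1588, 1633 and 1755. H3K27ac reads there were 176, 161 and 207 untreated and 270, 287 and 279 after maltonis. At chr2:129076401-129087600 the marks moved apart. H3K4me3 widened from 469, 469 and 575 bp to 3030, 2636 and 3097 bp (2.54 ± 0.11, SE; limma adjusted p = 0.000749), while H3K27ac reads fell from 846, 909 and 872 to 454, 506 and 460. Most of the wider peak lay beyond the H3K27ac region, inside which the H3K4me3 bases were 469, 469 and 575 against 1100, 656 and 1231.

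At chr20:20710001-20730000 H3K4me3 widened from 1008, 440 and 608 bp to 2425, 2726 and 2896 bp, with H3K27ac reads of 2790, 2867 and 2850 against 2921, 3332 and 3249, a log2 fold change of 0.20. The other regions named for narrowing were chr8:143586801-143594800, chr12:57844201-57857200 and chr16:10959601-10967600. At the one on chromosome 12, H3K4me3 went from 3113, 3149 and 3499 bp to 1044, 778 and 914 bp, while H3K27ac reads were 702, 675 and 740 against 566, 532 and 532 and did not reach the fold limit.

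H3K4me3 and H3K27ac come from separate libraries, so H3K4me3 width could be set beside the H3K27ac calls. In the 929 regions called higher in H3K27ac reads, the median H3K4me3 width was 1347, 1338 and 1312 bp untreated and 1722, 1750 and 1752 bp after maltonis, 30.7% wider. In the 907 called lower it was 1305, 1277 and 1268 bp against 1249, 1256 and 1270 bp, which overlapped. Their mean width was 1469, 1420 and 1427 bp against 1381, 1375 and 1404 bp, lower in every maltonis library. In the 7650 not called the median was 1590, 1570 and 1548 bp against 1806, 1850 and 1848 bp. The general widening of H3K4me3 was therefore not seen in the median of the regions called lower in H3K27ac.

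The log2 difference in median width between the regions called higher and those called lower was 0.0457, 0.0673 and 0.0492 in the untreated libraries and 0.463, 0.479 and 0.464 in the maltonis libraries. The 2 sets thus stood further apart after maltonis, by 0.415 on the log2 scale, without overlap between the conditions (exact permutation p = 0.1, two-sided, the smallest possible). H3K4me3 was wider in every maltonis library at 711 of the 929 regions (76.5%) called higher and narrower at 9 (0.969%). Of the 907 called lower, 127 (14.0%) were wider and 128 (14.1%) narrower. The shares among all 9486 were 55.2% wider and 3.50% narrower. Over the 9486 regions the log2 fold changes of H3K27ac reads and H3K4me3 width had a Spearman correlation of 0.39, a description across regions that share the same libraries and treatment.

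**Figure D4:**
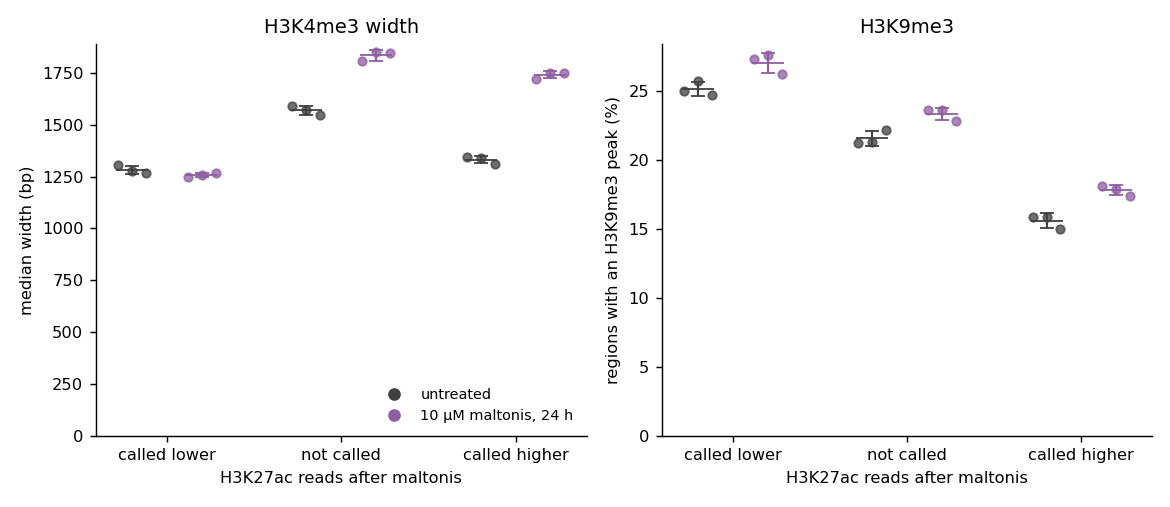
Median H3K4me3 width in bp (left) and share of regions with an H3K9me3 peak in percent (right) in each library, for regions called lower (907), not called (7650) or called higher (929) in H3K27ac reads after maltonis (points, libraries; bars, mean ± SD of 3; axes start at 0). H3K4me3 width is higher after maltonis in regions not called or called higher and overlaps in those called lower, and the H3K9me3 share is higher in all the maltonis libraries of each class.

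**Figure D5:**
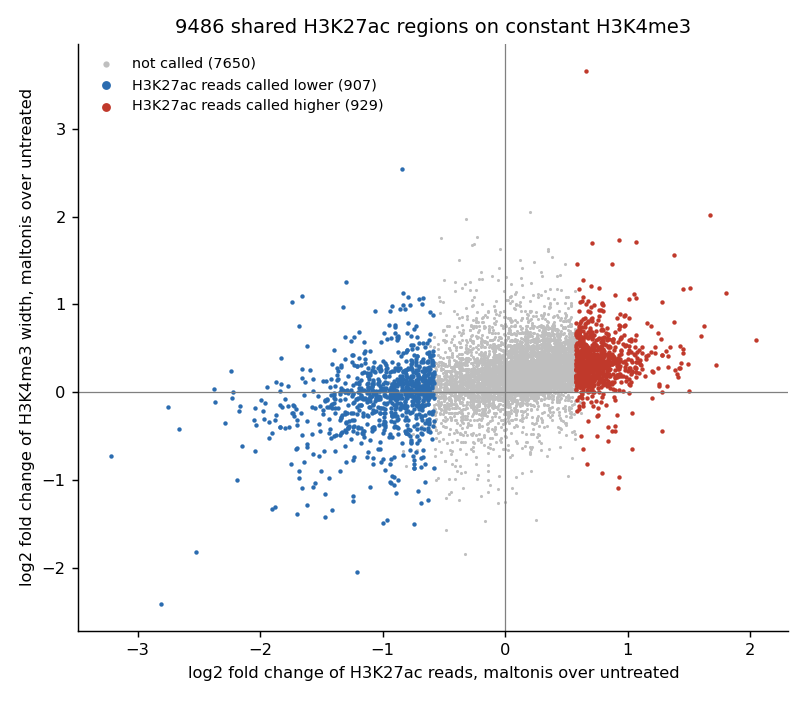
Log2 fold change of H3K4me3 width against that of H3K27ac reads, maltonis over untreated, 1 point per region, coloured by the call on H3K27ac reads. The 929 regions called higher lie mainly above 0 in H3K4me3 width, while the 907 called lower lie on both sides of 0.

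H3K27ac length and H3K4me3 width leaned the same way, with many exceptions. Of the 1814 regions where H3K27ac was shorter in every maltonis library, H3K4me3 was wider in every maltonis library at 648 and narrower at 130. The 648 are 35.7% of the shortened regions, against 55.2% wider over all 9486, and 12.4% of the 5234 with wider H3K4me3. The 130 are 7.17% of the shortened regions, against 3.50% narrower over all 9486. Of the 465 regions where H3K27ac was longer, 324 (69.7%) had wider H3K4me3 and 3 (0.645%) had narrower. These shares are a description and were not tested.

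The last comparison was with H3K9me3, which the choice of regions did not use. An H3K9me3 peak overlapped 21.0, 21.2 and 21.7% of the regions in the untreated libraries and 23.4, 23.4 and 22.6% in the maltonis libraries, with means of 21.3 ± 0.365 and 23.1 ± 0.478% (SD, n = 3 each; exact permutation p = 0.1, two-sided, the smallest possible). At the shared regions without H3K4me3 the share was 24.8, 25.6 and 25.4% untreated and 20.6, 20.4 and 19.5% after maltonis. The difference between the 2 kinds of region went from -3.98 to 2.98 percentage points, a change of 6.96 points without overlap (exact permutation p = 0.1). H3K9me3 peaks were thus more frequent at these regions and less frequent at those without H3K4me3 in all the maltonis libraries. This included replicate 3 with its lower number of reads. Where H3K4me3 was in some lists but not all, the share differed by -4.01 percentage points (maltonis minus untreated), without overlap. At the 1252 too wide regions, 1030 of them with H3K4me3 in all 6 lists, the mean was 63.6% in both conditions. A higher share after maltonis was thus not seen in every class with H3K4me3.

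Most regions, 5841 (61.6%), had no H3K9me3 peak in any library, and 1047 (11.0%) had one in all 6. An H3K9me3 peak in all 3 maltonis libraries and no untreated one was found at 144 regions (1.52%, against 0.938% of all shared regions), and the reverse at 62 (0.654%, against 0.933%). Of the 183 shared regions with H3K9me3 in maltonis alone, 78.7% were on constant H3K4me3, against 48.6% of all shared regions. Among the 4424 regions without H3K4me3 the counts were 2 (0.0452%, against 0.938% of all shared regions) and 50 (1.13%, against 0.933%).

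The H3K9me3 share was compared between the H3K27ac classes in the same way. It was 15.9, 15.9 and 15.0% untreated and 18.1, 17.9 and 17.4% after maltonis where H3K27ac reads were called higher, and 25.0, 25.7 and 24.7% against 27.3, 27.6 and 26.2% where they were called lower. The difference between these classes was -9.53 ± 0.375 points untreated and -9.25 ± 0.446 after maltonis, which overlapped (SD, n = 3 each; exact permutation p = 0.5).

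Single regions show how H3K9me3 and H3K27ac were combined. At chr19:12162201-12165400 the H3K9me3 peak held 437, 456 and 505 reads untreated and none was called after maltonis, while H3K27ac reads were 367, 305 and 315 against 447, 544 and 465 (log2 fold change 0.60 ± 0.103, SE; edgeR adjusted p = 0.00057). At chr9:108319201-108322200 the reverse held, with H3K9me3 peaks of 257, 205 and 192 reads in maltonis alone and H3K27ac reads of 264, 219 and 227 against 78, 107 and 107 (-1.24 ± 0.17, SE; edgeR adjusted p = 0.000133). The 2 marks did not always move in opposite ways. At chr19:7068001-7071600 H3K9me3 peaks of 74, 595 and 387 reads appeared in maltonis alone and H3K27ac reads were 405, 445 and 416 against 575, 582 and 538, higher in all the maltonis libraries. At chr2:169345201-169350200 H3K9me3 was called in the untreated libraries alone, with 289, 133 and 275 reads, and H3K27ac reads were lower after maltonis, at 729, 721 and 743 against 476, 519 and 524. The other 2 named for H3K9me3 were chr20:62204201-62209200, in maltonis alone, and chr19:2838801-2843800, in the untreated libraries alone.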

How the data were processed

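1 peak list per library was analysed, with coordinates in hg19, the build named in the submitters' processing notes. These notes also name BWA, SAMtools, MACS2 and SICER, without versions. According to the study's methods, the authors called H3K4me3 with MACS2 and the other marks with epic2, which joins enriched windows of 200 bp. The deposited H3K4me3 lists give a score, a fold enrichment as a ratio to local background and −log10 p and −log10 q values, and no reads. The deposited H3K27ac and H3K9me3 lists give a read count and an island score per peak, not normalised and for the boundaries of that library. Whether the callers used a control was not taken into account.

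Called length was the sum of the peak lengths of a library in a region, and H3K4me3 width that of the whole H3K4me3 peaks overlapping it. Counts were summed per region and tested with edgeR 4.0.16 (TMM), and lengths and widths with limma 3.58.1, in R 4.3.3, condition as the only term. All p-values were adjusted over all regions tested. Standard errors of edgeR were derived from its F statistic. Values per library were set against each other with the exact permutation test (two-sided, 20 assignments). Scripts were tested on simulated data. Members and rules were chosen with earlier results of these data known, and the quartiles, flanks, edges, profile and H3K27ac classes were added after values were seen. Per direction the text names the 8 regions with the largest change in reads among those called in both reads and density, 4 each for called length and H3K4me3 width (conditions not overlapping), and 3 for H3K9me3 by mean count. It also names the 5 with the most reads per kb and those at the width limit. Same-numbered libraries of the 2 conditions did not deviate together (correlations -0.004 to 0.031), so replicate numbers were not treated as pairs. No pair of libraries agreed within sampling noise. Alternatives included DESeq2 1.42.0. Gene annotation was not used here.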

Additional observations from a re-analysis of the deposited data

How the results depend on the processing

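Of the recomputed summary values, 178 stayed close to those reported and 41 moved, none with a change of sign. A count was taken as close when it lay within a factor of 1.5. A reversed balance of higher and lower calls could therefore still be close. The balance of read calls, 929 higher and 907 lower, leaned the other way with total reads in peaks (753 and 987), a common lowest island score (801 and 943), a mean count of at least 100 (865 and 913) and merging within 1000 bp (843 and 861). A replicate block, although the numbers pair no samples, gave 8 longer and 142 shorter regions in place of 61 and 455, and 82 in place of 143 with lower density, with 918 higher and 877 lower for reads. The span from first to last peak base gave 285 shorter regions. With 1 library left out, 18 to 30 regions were longer, 158 to 341 shorter, 256 to 480 higher in density and 37 to 78 lower. Regions of similar called length, scaled on their own, gave 17 higher and 33 lower calls in place of 48 and 12. H3K4me3 peaks with a −log10 q of at least 10 left 16 narrower regions, and the strongest 75% of peaks 36. Merging within 1000 bp moved the difference inside H3K4me3 (maltonis minus untreated) to -9.33 bp. The strongest 75% of peaks moved it to -2.5 bp, the difference in RPM to 6.46, and the gap to regions without H3K4me3 to 0.604 (log2 RPM), 0.218 (log2 reads per kb) and 6.43 points (H3K9me3). An H3K9me3 overlap of at least 50% gave 2.87 points for the regions on H3K4me3, -3.56 for those without and 6.44 for the gap. A common lowest island score, added after seeing the data, gave a difference of 5.77 RPM, 3.17 points for the regions on H3K4me3 and -3.86 for those without. The cause of these shifts was not tested.

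Of the named regions, 45 recomputed values lost their call, chiefly with a library left out, and kept their direction. The H3K9me3 shares rest on fewer reads than H3K27ac, and the H3K4me3 lists hold none. Boundaries were set by the caller in each library, and the maltonis H3K27ac lists admitted lower scores. The part of this in the results was tested only by the common lowest score.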
